A study of Rattus norvegicus with 6 samples.

Results

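Caveolin and caveolar coat transcripts were followed in RK3E, an established epithelial cell line derived from rat kidney, after transformation by GLI1. GLI1 is a zinc finger transcription factor that acts at the end of the Hedgehog pathway. Every probe set carrying exactly 1 gene symbol out of Cav1, Cav2, Cavin1, Cavin2, Cavin3 and Ehd2 was taken. This gave 5 of 14217 named genes and 10 of 31042 probe sets, a probe set being the group of short oligonucleotides that reports 1 transcript. There were 3 for Cav1, 4 for Cav2 and 1 each for Cavin2, Cavin3 and Ehd2, so that 5 of the 6 genes listed were measured. Cavin1 had 0 such probe sets and was not analysed here.

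Caveolae are small flask-shaped pits of the plasma membrane, rich in cholesterol and sphingolipids, that buffer membrane tension and gather signalling proteins. Caveolins are hairpin membrane proteins that oligomerise to shape the pit, cavins are coiled-coil proteins that form its cytoplasmic coat, and the ATPase EHD2 sits at its neck and holds it at the cell surface. Caveolae are abundant in adipocytes, endothelium, muscle and fibroblasts, and Cav1 is known to be low in fibroblasts transformed by several oncogenes.

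The tested cells were GLI1-transformed RK3E, grown from foci that formed after transfection with a GLI1 expression construct (4 arrays), and they were set against parental RK3E (2 arrays). Both were kept in medium with serum. Of the GLI1 arrays, 1 names no clone, 1 is from clone I and 2 are from clone II. The labels call the samples biological replicates without saying how cultures were kept apart, so p-values measure the spread between these arrays, which may be technical and is limited by their number. Each array counts as 1 unit, so the GLI1 spread mixes the 2 arrays of clone II with arrays of other labels. In the comparison of clones, the other GLI1 group joins clone I and the array that names no clone. Gli1 itself had log2 signals of 11.71 to 13.15 on the GLI1 arrays and of 5.17 and 6.50 on the parental arrays.

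The kidney epithelial identity was only partly visible. Krt8 and Epcam, a simple keratin and an epithelial adhesion protein, were the 2 of 7 measured kidney epithelial markers that passed the signal filter, with log2 differences of 0.49 (adjusted p = 0.783) and 1.15 (0.281), and Krt18, Krt19, Cdh1, Cdh16 and Pax8 were below it. Signals of that list summed to 1385 to 8641 on GLI1 arrays and to 1846 and 2508 on parental arrays. Of 8 fibroblast markers, 5 were tested and 3 fell (the collagen genes Col1a1, Col1a2 and Col3a1), and the summed signal was 5132 to 17363 on GLI1 arrays against 157324 to 174745 on parental arrays. Of 7 endothelial markers 0 passed the filter, with sums of 763 to 1280 in GLI1 and 978 to 1181 in parental cells. Adipocyte markers (1 of 7 tested, 0 called) summed to 1205 to 1555 in GLI1 and 3763 to 4009 in parental cells, with Adipoq and Plin1 below the filter. Muscle markers (5 of 8 tested) summed to 2756 to 3961 in GLI1 and 9878 to 18410 in parental cells, and the smooth muscle genes Acta2 and Cnn1 fell. Immune markers (2 of 6 tested) summed to 1109 to 2237 in GLI1 and 2918 to 3039 in parental cells, Cd14 fell, and Ptprc was below the filter. These sums rest on few genes. In the fibroblast list the 3 collagens carried the fall of the sum, while Pdgfra gave -0.06 (adjusted p = 0.95) and Fbln1 0.13 (0.887). The dim genes of that list gave -1.63 for Thy1, 0.03 for Dcn and 0.66 for Lum. The adipocyte sum rests on Lpl, with log2 means of 6.17 in GLI1 and 11.64 in parental cells, while the dim Adipoq, Fabp4 and Plin1 had differences of 1.94, 1.60 and 0.75. In the muscle list Des gave -0.10 (0.896), Myog -0.26 (0.722), Myh11 -0.30 (0.692), and the dim Ckm had the higher mean in GLI1 cells. In the immune list Aif1 gave -0.25 (0.776). Its dim genes went both ways, with 0.70 for Cd3e and 0.13 for Ptprc against -1.57 for Cd68 and -0.47 for Lyz2. Those few genes thus move with the caveolar values below, and their part in them was not tested. In such bulk RNA, fewer cells of a type and less RNA per cell cannot be told apart.

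Sequences around the annotated starts of the measured genes are shown because several of them were low together in GLI1-transformed cells. They run from 250 bases before to 50 after the start, 5′ to 3′ on the gene's strand, from RefSeq on rat build GRCr8. Capitals mark any match, on either strand, to a motif searched: GGGCGG of SP1, GACCACCCA of GLI, GGAATG of TEAD, CAGAC of SMAD, TGANTCA of AP-1 and the CArG box of SRF.
Cav1, chr4:46606288-46606587, + strand: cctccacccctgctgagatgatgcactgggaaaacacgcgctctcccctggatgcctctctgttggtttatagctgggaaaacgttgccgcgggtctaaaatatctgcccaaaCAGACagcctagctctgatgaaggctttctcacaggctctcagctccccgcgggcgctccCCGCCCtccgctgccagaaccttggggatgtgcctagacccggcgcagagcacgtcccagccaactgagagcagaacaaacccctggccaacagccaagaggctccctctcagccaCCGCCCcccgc
Cav2, chr4:46582431-46582730, + strand: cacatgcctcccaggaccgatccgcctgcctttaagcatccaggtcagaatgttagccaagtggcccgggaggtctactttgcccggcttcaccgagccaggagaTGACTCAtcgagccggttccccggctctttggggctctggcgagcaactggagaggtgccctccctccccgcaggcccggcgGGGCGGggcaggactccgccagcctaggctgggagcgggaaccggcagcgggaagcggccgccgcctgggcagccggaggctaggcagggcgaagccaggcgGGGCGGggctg
Cavin2, chr9:57805975-57806274, - strand: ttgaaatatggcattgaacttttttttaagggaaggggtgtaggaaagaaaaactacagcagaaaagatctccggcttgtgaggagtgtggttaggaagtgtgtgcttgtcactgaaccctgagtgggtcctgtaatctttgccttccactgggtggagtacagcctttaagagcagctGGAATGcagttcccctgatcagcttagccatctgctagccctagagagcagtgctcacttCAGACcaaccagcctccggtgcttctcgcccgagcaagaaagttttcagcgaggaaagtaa
Ehd2, chr1:85786894-85787193, - strand: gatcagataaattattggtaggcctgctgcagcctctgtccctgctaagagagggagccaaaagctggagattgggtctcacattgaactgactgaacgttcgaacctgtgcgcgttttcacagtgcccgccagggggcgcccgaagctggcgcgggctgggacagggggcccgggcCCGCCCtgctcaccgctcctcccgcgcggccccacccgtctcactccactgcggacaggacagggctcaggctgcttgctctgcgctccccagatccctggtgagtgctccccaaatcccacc
Cavin3 is named only.

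The GLI letters occurred in 0 of the 6 windows of these genes (Cav1 has a further window for a later start, and Cavin1 has 1), against 0.387% of 33365 windows of the same length over the genome. The CArG box occurred in 0 of 6, against 1.63%. The SP1 letters stood in 4 of 6 windows, those of Cav1, Cav2, Cavin1 and Ehd2, against 33.1% of all windows. SMAD letters were in 3 of 6 (50.1% of all), and the AP-1 letters in 1, that of Cav2 (7.34%). The TEAD letters were in 1 as well, that of Cavin2 (14.2%). The GC content was 61.7% for Cav1, 70.3% for Cav2, 64.3% for Ehd2 and 48.7% for Cavin2, where the median window had 51.7%. These letter matches are descriptions of the sequence only, and the motifs do not overlap one another in the windows printed.

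The comparison the study states is that of GLI1-transformed with parental cells. The caveolar genes were chosen by this contrast, the low Cav1 signal of GLI1-transformed cells being known beforehand, so their values in it are a description and carry no p-value. Values are MAS5 signals, a background-adjusted brightness scaled to a common mean on each array. A probe set was tested when its mean log2 signal over all arrays was above the 40th percentile (8.33, a signal of 322). Of the 10 caveolar probe sets 4 passed, 1 each for Cav1, Cavin2, Cavin3 and Ehd2, and 6 did not, including all 4 of Cav2. The passing Cav1 probe set did so through the parental arrays only. The Cavin2 probe set had a log2 mean of 8.30 on GLI1 arrays, just under the cut, and of 9.27 on parental arrays. The 6 are called dim for their mean over all arrays, although Cav1 1393281_at had signals of 2745 and 4133 on parental arrays. Differences of these 6 come from a fit without the filter.

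Cav1 encodes caveolin-1, the protein that caveolae outside striated muscle depend on. Its brightest probe set, 1372111_at, had signals of 170.1, 253, 278 and 174 on the array with no clone named, clone I and clone II replicates 1 and 2, against 14964 and 8662 on parental replicates 1 and 2. All GLI1 values lay below their array's median signal (568 to 691), and both parental values were in the top 10% of their array, at percentiles 95.2 and 90.3. The groups stood far apart, the lower parental value being 31.2 times the highest GLI1 value. The log2 means were 7.74 ± 0.36 (SD, n = 4) in GLI1 cells and 13.47 ± 0.56 (SD, n = 2) in parental cells, a difference of -5.74 (SE 0.36), or 53.3-fold lower in GLI1 cells. With 32 added to each signal before the log it was 46.3-fold lower.

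Another Cav1 probe set, 1393281_at, gave signals of 15.3, 15.7, 129 and 222 on GLI1 arrays in the same order and of 2745 and 4133 on parental arrays. Again no array of one group reached the other, and within the GLI1 arrays both clone II values were the higher ones. The log2 difference was -6.04 (SE 1.12), 65.8-fold lower in GLI1 cells, and 34.7-fold lower with 32 added. The remaining one, 1370131_at, gave 13.2, 25.5, 81.8 and 164 on GLI1 arrays and 369 and 955 on parental arrays, a log2 difference of -3.68 (SE 1.06), 12.9-fold lower and 7.20-fold lower with 32 added. The 3 probe sets of Cav1 therefore ran the same way, and their fold changes, which rest on dim GLI1 signals, ranged from 12.9 to 65.8. With 1 array left out at a time the fold was 40.5 to 70.0 on 1372111_at, 44.0 to 107 on 1393281_at and 7.99 to 20.7 on 1370131_at.

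Cav2 encodes caveolin-2, which needs caveolin-1 to leave the Golgi and joins it in hetero-oligomers. Its brightest probe set, 1377642_at, had signals of 117, 70.2, 174 and 49.3 on GLI1 arrays and 650.2 and 721 on parental arrays. The parental values were close to the median of their arrays, so that even the higher group was of middling brightness, and the groups did not overlap. The log2 means were 6.52 ± 0.80 (SD, n = 4) and 9.42 ± 0.11 (SD, n = 2), a difference of -2.90 (SE 0.68), 7.47-fold lower in GLI1 cells.

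Another probe set of Cav2, 1390800_a_at, was designed from the same source sequence as 1377642_at. It gave 1.9, 8.6, 125 and 41.1 on GLI1 arrays and 247 and 313 on parental arrays, a log2 difference of -4.03 (SE 1.49), 16.4-fold lower in GLI1 cells. Signals of 1.9 and 8.6 are at the very bottom of their arrays (percentiles 0.02 and 1.02), and the fold was 4.93 with 32 added and 7.88 to 31.8 with 1 array left out. Probe set 1386261_x_at, of a class that can bind related sequences, gave 59.6, 85.4, 55.7 and 273 on GLI1 arrays and 436 and 306 on parental arrays (log2 -1.96, SE 0.79). Here clone II replicate 2 came close to parental replicate 2. The last, 1370135_at, was dim throughout, at percentiles 2.19 to 20.1 of its arrays. It gave 41.8, 12.2, 98.4 and 96.6 on GLI1 arrays and 15.2 and 44.0 on parental arrays, with overlapping groups and a log2 difference of 0.86 (SE 1.07), which became -0.26 without clone II replicate 1 and parental replicate 1. For Cav2, 3 probe sets were thus lower in GLI1 cells and 1 was not.

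Cavin3 encodes a cavin that joins the coat through cavin-1 and binds protein kinase C delta. Its probe set 1367691_at was bright on every array, with signals of 9768, 8854, 7077 and 6155 on GLI1 arrays and 20672 and 20459.8 on parental arrays. Parental replicates were nearly equal and all GLI1 arrays lay below them. The log2 means were 12.94 ± 0.30 (SD, n = 4) and 14.33 ± 0.01 (SD, n = 2), a difference of -1.39 (SE 0.21), 2.63-fold lower in GLI1 cells and 2.35-fold lower with each array centred on its median.

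Ehd2 encodes the neck ATPase. Its probe set 1395166_at gave 2030.2, 1935, 2404 and 1807 on GLI1 arrays against 4695 and 4816 on parental arrays, with no overlap and the smallest spread among GLI1 arrays of any caveolar probe set. The log2 means were 10.99 ± 0.18 (SD, n = 4) and 12.22 ± 0.03 (SD, n = 2), a difference of -1.23 (SE 0.21), 2.34-fold lower in GLI1 cells and 2.09-fold lower with median centring.

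Cavin2 encodes a phosphatidylserine-binding cavin that helps bend the membrane. Its probe set 1382452_at gave 115, 321, 672 and 402 on GLI1 arrays and 970.3 and 390.3 on parental arrays. The groups overlapped, since both clone II arrays were above parental replicate 2. The log2 means were 8.30 ± 1.07 (SD, n = 4) and 9.27 ± 0.93 (SD, n = 2), and the difference of -0.96 (SE 0.69) was smaller than the spread between GLI1 arrays. With either parental array left out it ranged from -0.31 to -1.62.

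**Figure D1:**
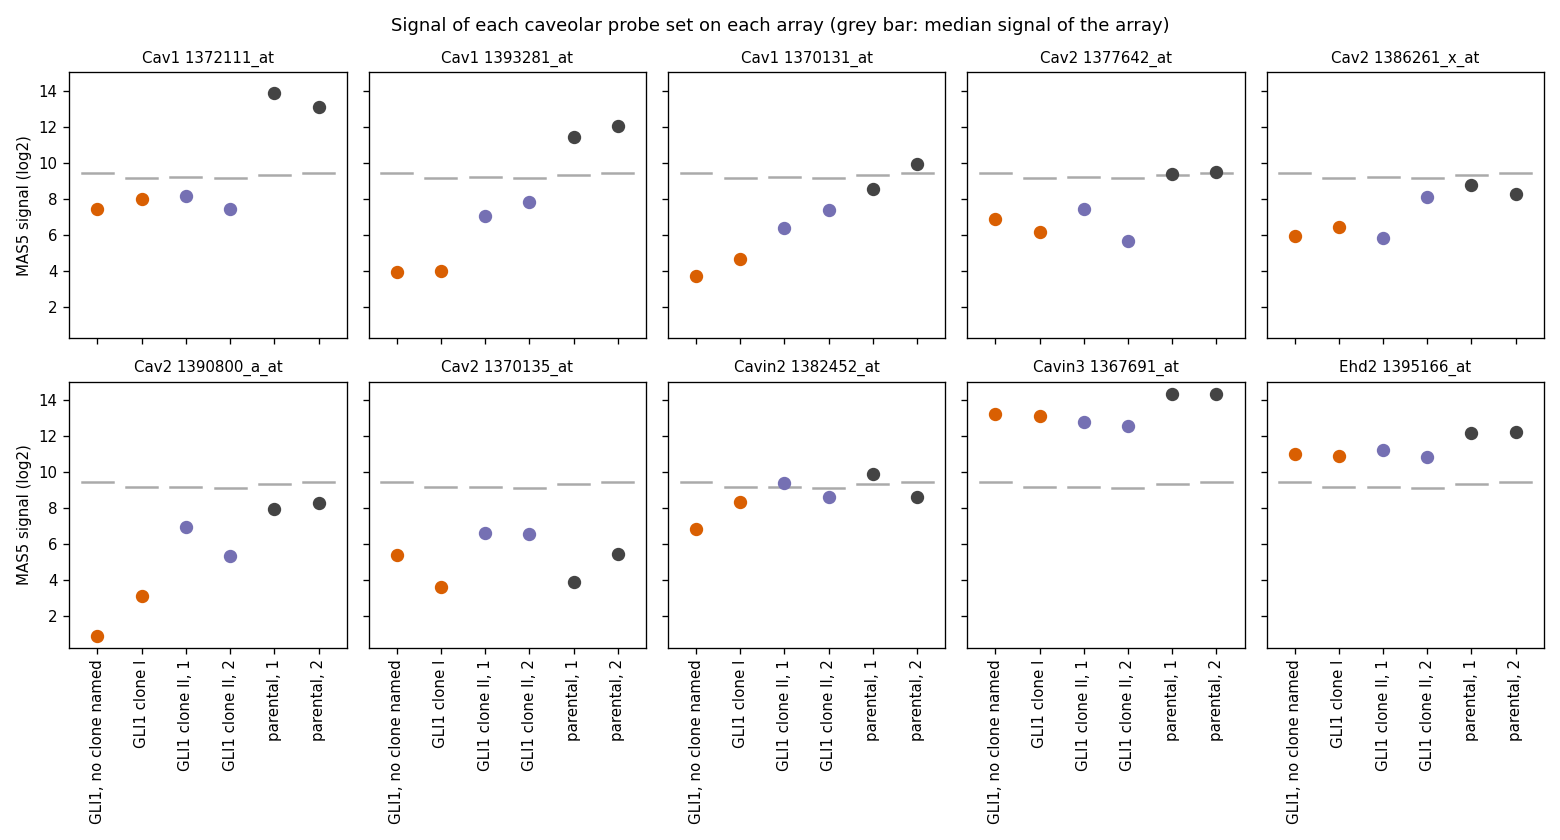
MAS5 log2 signal (y axis) of the 10 caveolar probe sets on each of 6 arrays (x axis), with a grey bar at the median signal of the array and colours for the other GLI1 arrays, clone II and parental cells. Cav1 1372111_at is at 7.41 to 8.12 on GLI1 arrays and at 13.87 and 13.08 on parental arrays, while Cavin2 and Cav2 1370135_at overlap between groups.

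Across the 10 probe sets, the 4 GLI1 arrays all lay below both parental arrays for 8, where 16.6% of all 31042 probe sets did so. The contrast chose these genes, so nothing is read from this count. Over all 18625 tested probe sets limma called 1087 higher and 1351 lower at an adjusted p under 0.05, against 1454 and 944 with median centring, which moved the median difference of all tested probe sets from 0.005 to 0.165 on the log2 scale. Leaving out a parental array moved the Cavin3 and Ehd2 values little and the Cav1 value more. Without parental replicate 1 the levels were 40.5-fold lower in GLI1 cells for Cav1 1372111_at, 2.61-fold for Cavin3 and 2.37-fold for Ehd2. Without parental replicate 2 these were 70.0-fold, 2.64-fold and 2.31-fold. Without both arrays of highest GAPDH 3'/5' ratio, clone II replicate 1 at 7.52 and parental replicate 1 at 3.66 with the others at 1.39 to 2.09, they were 44.2-fold, 2.52-fold and 2.51-fold.

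**Figure D2:**
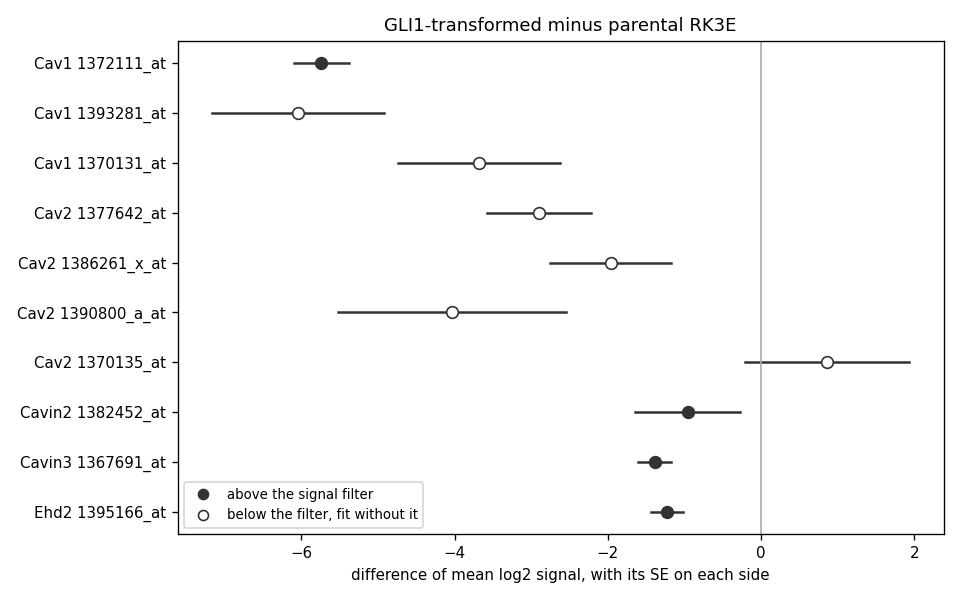
Difference of mean log2 signal, GLI1-transformed minus parental (x axis), for each caveolar probe set, with a line of 1 SE on each side. Filled points passed the signal filter and open points come from the fit without it. Values run from -6.04 for Cav1 1393281_at to 0.86 for Cav2 1370135_at.

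How far the GLI1-transformed lines differed among themselves was asked by setting the 2 clone II arrays against the other GLI1 arrays in a 3-group limma model. Clone II and the other arrays had log2 means of 7.78 and 7.70 on the brightest Cav1 probe set, and stood farther apart on the dim ones, with means of 7.40 and 3.95 on 1393281_at and 6.86 and 4.20 on 1370131_at. The difference was 0.09 on 1372111_at (95% interval -0.89 to 1.06, adjusted p = 0.972), and it was 3.45 on 1393281_at (1.88 to 5.01, adjusted p = 0.194) and 2.66 on 1370131_at (0.57 to 4.75, adjusted p = 0.521) in the fit without the filter. With 32 added to each signal these last were 2.09 (adjusted p = 0.329) and 1.55 (0.616), the signals on the other GLI1 arrays being 13.2 to 25.5. Probe sets of the same gene thus gave different sizes, at signals that were all below the array medians. The Cav2 probe set 1390800_a_at gave 4.15 (1.57 to 6.72, adjusted p = 0.363) and 1.53 with 32 added, its other GLI1 signals being 1.9 and 8.6, and 1370135_at gave 2.11 (-0.37 to 4.59, 0.717). The other Cav2 probe sets gave 0.03 (-1.85 to 1.91, 0.998) and 0.79 (-1.31 to 2.89, 0.903).

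Cavin2 was 2.71-fold higher in clone II, with a log2 difference of 1.44 (-0.08 to 2.95, adjusted p = 0.601), and both clone II arrays were above both other GLI1 arrays. The Cavin2 difference was 0.70 without the array that names no clone and 2.18 without clone I. Cavin3 went the other way, with both clone II arrays below both others and a log2 difference of -0.49 (-0.92 to -0.07, adjusted p = 0.506). Ehd2 differed by 0.07 (-0.48 to 0.62, adjusted p = 0.956). Over all 10 probe sets, both clone II arrays lay above both other GLI1 arrays on 5, where 16.7% of all 31042 probe sets did so. They lay below both on Cavin3 only. For that direction the share over all probe sets was not computed, so nothing is read from these counts. Of the 4 tested probe sets, Cav1 1372111_at and Cavin2 had GLI1 log2 means of 7.74 and 8.30, under the filter's 8.33. They were tested through their parental signal, which is outside this comparison, so the counts over these 4 are descriptions. In limma, 0 of the 4 tested probe sets passed after adjustment, where 0.129% of all tested probe sets did. At an unadjusted p under 0.05 it was 1 of the 4, Cavin3, where 8.65% of all tested probe sets were. In the fit without the filter 0 of the 6 dim ones passed (0.0354% of all 31042 probe sets did). Of these 6, 3 had an unadjusted p under 0.05, where 7.71% of all probe sets did. These misses do not show that the lines are alike, as the intervals are wide. The lines did differ in Krt8, the 1 of 15 tested cell type markers that passed, with log2 means of 9.15 in clone II and 12.32 on the other GLI1 arrays (difference -3.17, adjusted p = 0.0157). The other kidney epithelial marker tested, Epcam, had means of 8.99 in clone II and 10.99 on the others (adjusted p = 0.106), and the 5 tested fibroblast markers gave -0.60 to -1.66 (0.13 to 0.552). Their part in the caveolar differences was not tested.

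**Figure D3:**
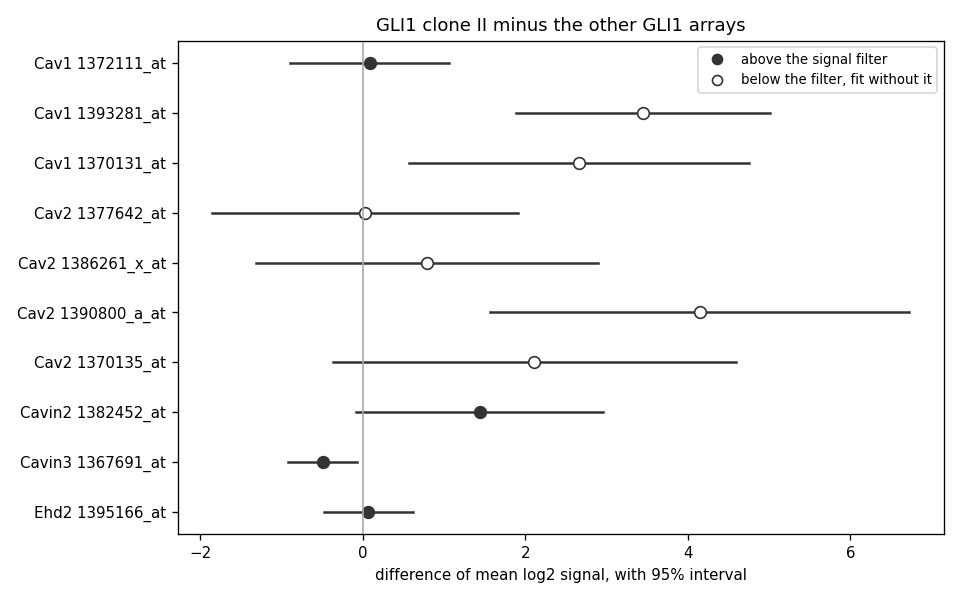
Difference of mean log2 signal, GLI1 clone II minus the other GLI1 arrays (x axis), for each caveolar probe set, with its 95% interval. Filled points passed the signal filter and open points come from the fit without it. Intervals of Cav1 1372111_at and Ehd2 span 0, and the 4.15 of Cav2 1390800_a_at, taken against signals of 1.9 and 8.6, becomes 1.53 with 32 added, where Cav1 1393281_at gives 2.09.

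Set against the same parental arrays, which both comparisons share, clone II and the other GLI1 arrays gave log2 differences of -5.69 and -5.78 on Cav1 1372111_at, a level 51.7-fold and 54.9-fold lower. On Cav1 1393281_at they gave -4.32 and -7.76, and on Cav2 1377642_at -2.88 and -2.92. For Cavin3 the differences were -1.64 for clone II and -1.14 for the other arrays, and for Ehd2 -1.19 and -1.26. For Cavin2 they were -0.24 and -1.68. Apart from Cav2 1370135_at, both means were below the parental mean on every caveolar probe set. This compares means only, in the contrast that chose these genes, so nothing is read from it.

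Cav2 and Cav1 lie side by side on chromosome 4 in the GRCr8 annotation, with no other protein-coding gene between them. The 3 protein-coding genes on each side were examined, a choice made after the data had been seen. Tes, the next gene beyond Cav2, encodes a LIM-domain protein of focal adhesions and fell, with log2 means of 13.78 in GLI1 and 15.42 in parental cells (difference -1.64, SE 0.24, adjusted p = 0.00336). A second Tes probe set also fell (-1.82, adjusted p = 0.00391) and another did not pass (-0.41, 0.552). The call on the first was lost without both arrays of highest GAPDH ratio (adjusted p = 0.0852). Met, beyond Cav1, encodes the hepatocyte growth factor receptor and gave -1.53 (SE 0.45, adjusted p = 0.054), passing with 32 added to each signal (adjusted p = 0.0477). Capza2, an actin capping protein gene, gave 0.22 (adjusted p = 0.459) and ST7 -0.16 (0.656). Tfec was below the filter and RGD1562178 had no probe set with 1 symbol.

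The genes nearest to Cav1 1372111_at in profile were Kctd12, Tgfb3, Axl, Cryab and Col1a2, by Euclidean distance between log2 profiles centred on their means over the 6 arrays. Kctd12 had a distance of 1.01 and a Pearson r of 0.993, and the other 4 had distances of 1.13 to 1.24 and r of 0.983 to 0.993, among 13954 tested probe sets with 1 symbol. Their differences between GLI1 and parental cells ran from -4.97 for Axl to -5.73 for Col1a2. Nearest to Cav2 1377642_at were Fbln5 (distance 0.75), Ypel1 (0.79) and Mgst2 (0.95). These are descriptions over 6 shared arrays that fall into 2 separate groups. Without parental replicate 2, 3 of the 5 genes stayed nearest to Cav1, and with 32 added to each signal 0 of the 3 stayed nearest to Cav2.

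Most genes that work beside the caveolar coat did not pass the test, and those that did went both ways. Over all 10240 genes, with the brightest probe set of each, 7.8% rose and 7.75% fell, and the median log2 difference was 0.071. Of 12 tested caveolar partners, 1 rose, 1 fell and 10 did not pass, with a median of 0.13. Flna encodes filamin A, an actin crosslinker that binds caveolin-1, and it fell 4.17-fold, with log2 means of 13.21 ± 0.33 (SD, n = 4) in GLI1 and 15.27 ± 0.27 (SD, n = 2) in parental cells (difference -2.06, SE 0.23, adjusted p = 0.000992). Dnm1, the gene of the mainly neuronal dynamin that cuts vesicle necks, rose 3.15-fold, to 12.44 ± 0.21 (SD, n = 4) in GLI1 cells against 10.79 ± 0.34 (SD, n = 2) in parental cells (SE 0.22, adjusted p = 0.00225). Pacsin2, which encodes a membrane-bending protein of caveolae, gave 0.35 (adjusted p = 0.351), and the Src-family kinase gene Fyn gave 0.14 (0.768). The Ehd2 relatives Ehd1 and Ehd4 gave 0.18 (0.684) and 0.18 (0.73), values named after they were seen.

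Among flotillins and other membrane scaffolds, 11 were tested, with 2 that rose, 1 that fell and 8 that did not pass (median -0.34). The 2 that rose are scaffold genes of the mitochondrial inner membrane, not of caveolae: Stoml2 (log2 0.86, adjusted p = 0.0139) and Phb2 (0.77, 0.0278), of which another probe set gave 0.30 (0.748). Anxa2, which encodes a calcium-dependent membrane-binding annexin, fell by 1.41 (adjusted p = 0.0325), a call that was lost with median centring (0.0549). Its partner gene S100a10 gave -0.91 (0.188), ranging from -1.58 to -0.24 with either parental array left out. The endoplasmic reticulum scaffold gene Erlin1 gave -0.69 (0.0566), close to the threshold, and passed with quantile normalization (0.0442).

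Clathrin-mediated uptake is the other main route of endocytosis. Among 21 of its genes that were tested, 2 rose and 3 fell, while 16 did not pass (median -0.24). Dab2, an adaptor that loads integrins and lipoprotein receptors into clathrin pits, fell 11.3-fold, with log2 means of 10.14 ± 0.32 (SD, n = 4) in GLI1 and 13.64 ± 0.08 (SD, n = 2) in parental cells (difference -3.50, SE 0.25, adjusted p = 9.45e-05). The lipid phosphatase gene Synj1 fell by 1.04 (adjusted p = 0.0108) and the clathrin light chain gene Cltb by 1.01 (0.0394), while a second tested Cltb probe set gave -0.12 (0.867). With median centring neither passed (0.0506 and 0.0694), leaving 1 that fell. Bin1, a membrane-curving protein gene, rose by 1.16 (0.00858) and the epsin gene Epn2 by 0.81 (0.0243), its other probe sets giving 0.78 (0.133) and 0.54 (0.159). The clathrin heavy chain gene Cltc gave 0.03 (0.927) and the adaptor subunit gene Ap2m1 -0.39 (0.502).

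Of 17 tested receptors and enzymes reported in caveolae, 0 rose, 2 fell and 15 did not pass (median -0.35). Those that fell were the calcium channel gene Itpr1 (log2 -1.41, adjusted p = 0.00672) and the BMP receptor gene Bmpr2 (-1.35, 0.0379), the second of which did not pass with median centring (0.063). The calcium pump gene Atp2b1 gave -0.35 (0.291) and Tgfbr1 0.26 (0.417). Of the genes of membrane cholesterol, sphingomyelin and phosphatidylserine, 11 were tested: 0 rose and 2 fell, while 9 did not pass (median -0.39). Only Sgms2 of this list was below the signal filter, and in the fit without the filter 1 gene of the list rose and 2 fell. Npc2, a lysosomal cholesterol carrier gene, fell by 1.22 (adjusted p = 0.0029) and Smpd1, the lysosomal sphingomyelinase gene, 2.01-fold (0.00561). The cholesterol exporter gene Abca1, named after its values were seen, did not pass on its brightest probe set (-0.97, 0.162), while 2 of its other probe sets were called lower (-2.02, 0.0109 and -2.25, 0.0235) and another was not (-1.21, 0.0997). Cers2 gave -0.36 (0.223) and Ptdss1 -0.16 (0.681), and Ptdss1 gave 0.00 with median centring.

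With median centring the lists held 5 genes that rose and 5 that fell, against 5 and 9 without it, as Anxa2, Synj1, Cltb and Bmpr2 no longer passed. Of the 14 genes called in these lists, Dnm1, Flna and Dab2 stayed past the threshold in every alternative in which they were tested. Npc2 lost its call without both arrays of highest GAPDH ratio (adjusted p = 0.0532), and the other 10 lost theirs with at least 1 parental array left out. Without clone I, Phb2, Anxa2, Epn2, Cltb and Bmpr2 lost theirs as well (0.051 to 0.0776), and without the intensity trend Phb2, Anxa2, Cltb and Bmpr2 did (0.0629 to 0.0748).

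**Figure D4:**
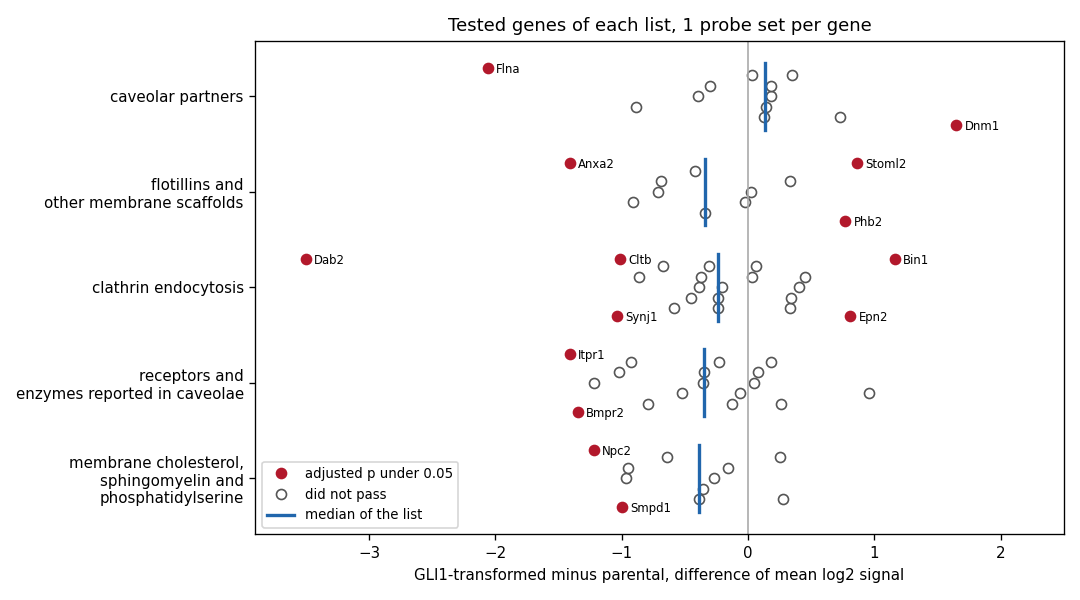
Difference of mean log2 signal, GLI1-transformed minus parental (x axis), for the tested genes of 5 lists (rows), with red points for an adjusted p under 0.05 and a blue line at the list's median. Dab2 is farthest to the left at -3.50 and Dnm1 farthest to the right at 1.65.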

How the data were processed

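The authors deposited linear intensity values from MAS5, per the submitters' processing notes, measured with biotin-labelled cRNA on 1-colour Affymetrix rat arrays. A MAS5 version was not given in the sources used here. Of 31099 probe sets, 57 controls were left out. Signals below 1 were set to 1, log2 was taken, and 18625 probe sets above the 40th percentile of mean log2 signal were tested. Detection calls were not used here, and dim signals are not called absent. Comparisons used limma 3.58.1 (lmFit, eBayes with an intensity trend; R 4.3.3). Tests were two-sided, p-values were adjusted by Benjamini-Hochberg across the tested probe sets, and the threshold was 0.05. The 2-group model had 4 residual degrees of freedom and the 3-group model 3. Only genes past it are said to have risen or fallen.

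Of 31042 probe sets 20826 had 1 gene symbol, 436 several and 9780 none in the platform annotation, and 20758 of the first were matched by gene identifier to GRCr8 names. Each list gene was read from its probe set of highest mean. Named list genes were the 4 of lowest adjusted p in each direction, where as many passed, and 2 bright ones that did not pass. The caveolar genes, lists, tests and alternatives were chosen with earlier results of these data known.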

Additional observations from a re-analysis of the deposited data

How the results depend on the processing

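The number of arrays limits all calls. With 1 array left out at a time, calls between GLI1-transformed and parental cells ranged from 510 to 3030 (2438 with all arrays): 510 without parental replicate 1, 697 without parental replicate 2 and 1499 without clone I. Calls in the gene lists ranged from 4 to 18 (14 with all; 4 and 6 without parental replicates 1 and 2, and 9 without clone I). The number of caveolar probe sets with all GLI1 arrays below the parental ones ranged from 8 to 9. It was 7 with median centring and 7 with quantile normalization. No share over all probe sets was computed for these settings. Calls between clone II and other GLI1 arrays ranged from 1 to 94 (24 with all): 94 without clone I and 1 without the array that names no clone, and caveolar calls there were 0 throughout. Without both arrays of highest GAPDH ratio the counts were 312, 3 for the lists and 7 between clones. With no filter calls between clones numbered 11. Clone calls were 4 with the 60th percentile filter, 4 without the intensity trend and 37 with median centring. With the 2 clone II arrays averaged into 1, calls between GLI1-transformed and parental cells numbered 2369. The lists then held 14 calls, and Cltb was no longer among them (adjusted p = 0.0524).

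The replicate numbers were tried as a replicate block, which gave 2627 calls between GLI1-transformed and parental cells, 89 between clones and 17 in the lists, S100a10 (adjusted p = 0.0121) and Erlin1 (0.0299) among them. Deviations of replicate 1 from its group mean correlated at 0.104, 0.0681 and 0.321 between groups. Among the other GLI1 arrays these numbers also part the array that names no clone from clone I. Replicate 1 had the higher GAPDH ratio in every group, a hint from the data and not the design. As 1 of the correlations was not over 0.1 and no label ties the numbers to a batch, the fit without the block was kept.

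Small differences changed sign. Cav2 1370135_at gave -0.26 without both arrays of highest GAPDH ratio. Between clones, with no filter and 1 array left out at a time (added after seeing the data), Cav2 1377642_at ranged from -0.88 to 0.94 (-0.33 without clone I) and Cav2 1386261_x_at from -0.36 to 1.94, while Cav2 1390800_a_at ranged from 3.06 to 5.24. Cav1 1372111_at gave -0.25 without both arrays and -0.25 to 0.42 with 1 array left out, and Ehd2 gave -0.13 without both and -0.13 to 0.28 with 1 left out. Between GLI1 and parental cells, with 1 array left out, Fyn ranged from -0.01 to 0.29, Cltc from -0.01 to 0.07 and Ptdss1 from -0.37 to 0.05. Cltc gave -0.07 with quantile normalization, and Ptdss1 gave 0.00 with median centring and 0.06 without both arrays. The cause of these changes was not tested.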

Other observations

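Among the list genes, a few below the signal filter, and so outside the test, had large differences. They were picked after their values were seen. Lpl, the lipoprotein lipase gene of the adipocyte list, had a log2 mean of 6.17 in GLI1 cells and 11.64 in parental cells, a difference of -5.47, and reached a signal of 471 on its highest GLI1 array and 3334 on its highest parental array. Sgms2, a plasma membrane sphingomyelin synthase gene, had its higher mean in GLI1 cells, 4.92-fold above the parental mean. Cav3, the muscle caveolin gene, was below the filter and gave -1.64 (SE 0.78). Its highest signal was only 30.2 on GLI1 arrays and 85.8 on parental arrays, far below the array medians. No p-value is given for these genes, which did not pass the signal filter.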
